A study of Mus musculus with 2 samples.

Results

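The 6 microRNA hairpins described here lie in imprinted loci outside chromosome 12, the chromosome of the large Dlk1-Dio3 cluster. They are Mir335 in Mest, Mir298 and Mir296 at Gnas, Mir3099 in Usp29, Mir483 in Igf2 and Mir675 in H19. They were chosen by symbol, through the Ensembl identifiers of GENCODE on mm10, and all 6 had a row among the 1973 genes of both tables. Small RNA was sequenced from the whole forebrains of 2 newborn mice of strain B6NCrl at postnatal day 0, without treatment or genetic change named in the labels. The labels name separate animals, pup 3 and pup 1, under 1 donor record, and give no sex for either. Both pups belong to 1 group, so the design gives the level of each hairpin and its spread between 2 animals, and no contrast between conditions.

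An imprinted gene is expressed from the copy of 1 parent, as set by DNA methylation laid down in the egg or the sperm. In tissues where they are imprinted, Mest, Igf2, Usp29 and the Gnas antisense transcript Nespas are known to be expressed from the paternal copy. H19 is expressed there from the maternal copy. A microRNA hairpin is cut out of such a host transcript and yields a mature strand from its 5′ arm, its 3′ arm or both, and each strand pairs with target messages mainly through its seed, bases 2 to 8. The counts used here pool both arms, and they carry no information on the parent of origin.

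Sequences are printed for the 4 hairpins on which the results turn, the most abundant one, the pair at Gnas and the one that differed most between the pups. Both arms are shown because the counts do not tell them apart. Capitals mark the seed, and the sequences are those of RefSeq on GRCm38.p6.
miR-335-5p: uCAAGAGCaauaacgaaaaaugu
miR-335-3p: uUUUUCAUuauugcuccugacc
miR-298-5p: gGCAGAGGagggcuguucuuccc
miR-298-3p: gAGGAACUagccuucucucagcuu
miR-296-5p: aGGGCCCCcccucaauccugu
miR-296-3p: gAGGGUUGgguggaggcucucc
miR-3099-5p: cCAGCUUCcuuccagcccuug
miR-3099-3p: uAGGCUAGagagagguugggga
The arms of Mir335 were poor in G and C, at 30.4% for miR-335-5p and 36.4% for miR-335-3p, while the arms of Mir296 held 66.7% and 68.2%. All 12 arms of the 6 hairpins matched an entry in the RefSeq table, and none of their 12 seeds occurred on another hairpin of it. Such single seeds were common, since 86.6% of the 1398 seeds in the table lay on 1 hairpin. By seed, the 6 hairpins thus belonged to no common family.

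The 6 hairpins were searched for stretches shared with other hairpins, and their mature sequences for exact matches in annotated transcripts. Of the 6 hairpins, 0 shared 20 consecutive nucleotides with a hairpin annotated elsewhere, against 71 of the 368 detected hairpins with a RefSeq entry. No mature sequence of the 6 was found in a transcript of another gene, on either strand, except that both arms of Mir675 lie in its host H19. Stretches were sought in GENCODE M21 hairpins only, and whole mature sequences in its transcripts. Partial matches of mature sequences and the rest of the genome were not searched. In the same libraries 43.5% of all reads in pup 3 and 43.0% in pup 1 mapped to several places and entered no gene's count.

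Levels are given below as CPM, a hairpin's reads per 1000000 assigned reads. All 6 hairpins were detected, with at least 10 counts in both pups, against 433 of 1973 genes in the tables (21.9%). Together they held 284296 reads in pup 3 and 315589 in pup 1. This was 3.70% of the reads assigned to a microRNA gene in pup 3 (95% exact binomial interval 3.69 to 3.72) and 3.49% in pup 1 (3.48 to 3.50), with a mean of 3.60% ± 0.149 (SD, n = 2). Mir335 supplied most of it, with 84.3% of the reads of the 6 hairpins in pup 3 and 78.1% in pup 1. Without Mir335 the other 5 held 0.583% in pup 3 and 0.766% in pup 1. The libraries held 7678662 assigned reads in pup 3 and 9037087 in pup 1. Intervals and tests on these reads cover counting error at most, and a p-value between the pups compares 2 libraries. They treat each read as a separate molecule, although no molecular identifiers are named.

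The mean levels ran from 29226 ± 2784 CPM for Mir335 to 3.67 ± 0.337 CPM for Mir675 (SD, n = 2). The order of the 6 was the same in both pups except for Mir298 and Mir296, which changed places. Of 16 measured neuronal markers 15 were detected, led by Mir137 at 33595 CPM in pup 3 and 24345 CPM in pup 1. Counts are uncertain for 13 of the 16, whose sequence recurs in part in other hairpins, among them Mir9-2 at a mean of 1.45 CPM and Mir124a-2 at 1.497 CPM. Markers of more posterior tissue, from the Hox clusters, summed to 148 CPM in pup 3 and 196 CPM in pup 1. Of these markers 4 of 6 were detected, led by Mir10b at 94.3 CPM in pup 3 and 96.2 CPM in pup 1, and Mir196a-1 was at 0 in both. In whole tissue, a hairpin made by fewer cells and a hairpin made at a lower level per cell cannot be told apart.

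**Figure D1:**
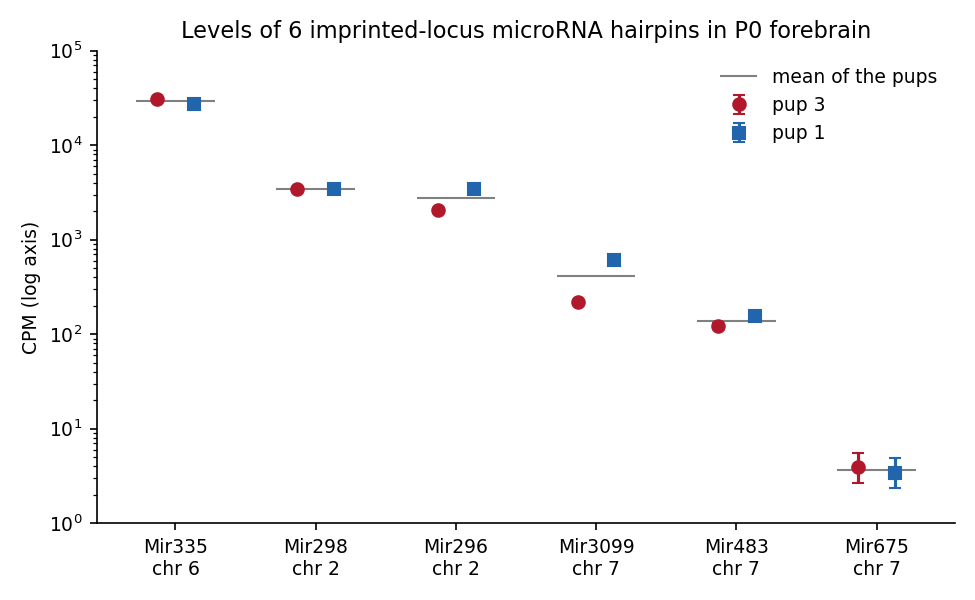
Levels of the 6 hairpins in CPM on a log axis, with pup 3 as red circles and pup 1 as blue squares. Bars are 95% exact binomial intervals and grey lines are means of the pups. Mir335 stands at 31194 CPM in pup 3 and 27258 CPM in pup 1 and Mir675 at 3.91 and 3.43 CPM, and the pups lie furthest apart at Mir3099.

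Mir335 lies in Mest, a gene for a hydrolase-like protein expressed in mesoderm and in the embryonic brain, and in human breast cancer cells the microRNA is known to restrain metastasis. It stood at 31194 CPM in pup 3 and 27258 CPM in pup 1, from 239532 and 246333 reads. It was the sixth most abundant gene of the tables in each pup, and stood 9.07 times as high as the next of the 6 hairpins, Mir298, in pup 3 and 7.93 times in pup 1. Its hairpin (ENSMUSG00000065501.1) spans chromosome 6, bases 30741299 to 30741396 (GRCm38), on the plus strand like Mest, and lies inside an intron in all 7 Mest transcripts that span it. In log2 CPM of the 2 pups, the genes closest to it were Mir137, a brain-enriched microRNA, at a distance of 0.20, and Mir130a at 0.36.

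Mir298 and Mir296 lie on the minus strand of chromosome 2, 378 bases apart, and are known to be cut from a long form of Nespas, which runs antisense to Nesp at the Gnas locus. Mir298 is known in mouse neuronal cells to repress Bace1, the beta-secretase that cleaves the amyloid precursor. Mir298 (ENSMUSG00000065410.1, 174267504 to 174267585) stood at 3438 CPM in pup 3 and 3439 CPM in pup 1. The pups were therefore almost level on this scale, at a mean of 3439 ± 0.475 CPM (SD, n = 2), from 26403 and 31080 reads. Mir296 is known in human endothelial cells to promote vessel growth and in mouse embryonic stem cells to repress Nanog. Mir296 (ENSMUSG00000065521.1, 174267047 to 174267125) stood at 2047 CPM in pup 3 and 3461 CPM in pup 1, with a mean of 2754 ± 999.5 CPM. The ranges of the pair overlapped, because Mir296 was below Mir298 in pup 3 and slightly above it in pup 1. These are therefore the neighbours in the order of levels that did not differ beyond their spread.

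No annotated host gene of GENCODE M21 covers Mir298 or Mir296. The annotated 3′ end of Nespas, at 174281237 on the same strand, lies 13651 bases before Mir298 and 14111 bases before Mir296. The only other annotated hairpin within 50 kb of the pair was Gm27591, with 0 reads in both pups, and the other 4 hairpins had no annotated neighbour within that distance. The genes closest to Mir298 were Mir324 at a distance of 0.15 and Mir484 at 0.17. Those closest to Mir296 were Mir1298 of the X chromosome at 0.11 and Mir379 of the imprinted chromosome 12 cluster at 0.17.

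Mir3099 lies in Usp29, a gene that shares its promoter region with the imprinted gene Peg3 on the other strand. The microRNA has been studied in mouse embryos and developing brain. It stood at 218 CPM in pup 3 and 606 CPM in pup 1, from 1675 and 5475 reads, with a mean of 412 ± 274 CPM (SD, n = 2). Both values lay below those of the Gnas pair and above those of Mir483. Mir3099 (ENSMUSG00000092815.1) spans chromosome 7, bases 6803587 to 6803670, on the plus strand, in an intron of both Usp29 transcripts that span it. The genes closest to it were Mir1193 of the chromosome 12 cluster, at a distance of 0.18, and the neuronal Mir129-1, at 0.45. The count of Mir129-1 is uncertain, since part of its sequence recurs in another hairpin.

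Mir483 and Mir675 come from the neighbouring genes Igf2 and H19 on distal chromosome 7, which share enhancers and a methylation-controlled insulator. Mir483 is known in human tumours as a growth-promoting product of the IGF2 locus. It stood at 122 CPM in pup 3 and 155 CPM in pup 1, from 938 and 1397 reads, with a mean of 138 ± 22.9 CPM (SD, n = 2). Mir675 is known in mouse placenta to restrain growth and to repress Igf1r. It stood at 3.91 CPM in pup 3 (95% exact binomial interval 2.64 to 5.58) and 3.43 CPM in pup 1 (2.33 to 4.87), from 30 and 31 reads. Mir483 was thus 31.3 times as high as Mir675 in pup 3 and 45.1 times in pup 1, the widest step in the order of the 6 hairpins. The floor of 3 counts was 0.391 CPM in pup 3 and 0.332 CPM in pup 1, so Mir675 was low and above the floor.

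Mir483 (ENSMUSG00000070140.1) lies on the minus strand from 142654924 to 142654996, in an intron of all 7 Igf2 transcripts that span it and of 1 transcript of the gene Gm49394. Mir675 (ENSMUSG00000076275.1) lies on the minus strand from 142577064 to 142577147, in an exon of 3 H19 transcripts and in an intron of 1. The genes closest to Mir483 were Mir551b at a distance of 0.03 and Mir345 at 0.15. Those closest to Mir675 were Mir450-2 at 0.05, which shares a stretch with another hairpin, and Mir7070 at 0.18. In rodent brain Igf2 is known to be made mainly by choroid plexus, meninges and vessels. Markers of choroid plexus and multiciliated cells were all detected, 7 of 7, and summed to 11022 CPM in pup 3 and 13902 CPM in pup 1. Of 6 mural, meningeal and mesenchymal markers 5 were detected, summing to 5343 CPM in pup 3 and 5972 CPM in pup 1. Mir199a-1 of that list was at 0 in pup 1. The part of these cells in the levels of Mir483 and Mir675 was not tested.

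Between the pups, Mir3099 was lower in pup 3, Mir296 was lower by less, and Mir335 was moderately higher. The log2 ratio of pup 3 over pup 1 was taken on counts with 0.5 added, scaled by TMM, a trimmed mean that corrects for the makeup of a library. An exact binomial test over all genes that summed to at least 20 counts, adjusted by Benjamini-Hochberg, called 5 of the 6 hairpins at 0.05, where 62.8% of the 460 genes tested were called. Of the 5, 2 were higher in pup 3, where 30.0% of all genes were, namely Mir335 and, except under total counts, Mir298. The other 3 were lower, where 32.8% of all genes were. The share of the 6 called was thus not far from that of all genes, and the test measures counting error only. Whether a ratio exceeds the usual spread between newborn animals cannot be tested with 2 pups. It is therefore set beside the ratios of the 433 detected genes, whose median absolute log2 ratio was 0.38.

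The log2 ratio of Mir3099 was -1.27 (95% interval, exact binomial, -1.35 to -1.19), 0.414 of its level in pup 1 after TMM scaling, with an adjusted exact p of 1.53e-249. It was the single hairpin of the 6 at least 2-fold apart, where 12.5% of detected genes were. At least 2-fold lower in pup 3 was 1 of 6 hairpins, against 4.85% of detected genes, and at least 2-fold higher 0 of 6, against 7.62%. Of the 433 detected genes 10 had a lower ratio and 25 a larger absolute ratio, so the difference was in the outer part of the range without being the extreme.

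Mir296 had a log2 ratio of -0.56 (-0.59 to -0.53) and Mir335 of 0.39 (0.387 to 0.403), each with an adjusted exact p below the smallest number the computation could hold. Of detected genes, 35.3% had a larger absolute ratio than Mir296 and 48.7% a larger one than Mir335. Scaled by total counts Mir335 had 0.19 and was still called higher. Mir335 therefore sat near the middle of the genes in its spread between pups, and Mir296 somewhat above it. Mir298 had 0.20 (0.18 to 0.22, adjusted exact p = 1.56e-60) under TMM and -0.00028 under scaling by total counts, where it was not called. Its direction thus depends on the scaling.

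Mir483 had a log2 ratio of -0.14 (-0.26 to -0.02) with an adjusted exact p of 0.0368. Its call was lost with size factors of DESeq2 (adjusted exact p = 0.0577) and without a count minimum (0.0613), and its ratio was -0.34 under total counts. Mir675 had 0.39 with an interval from -0.39 to 1.16 and an adjusted exact p of 0.437, so that at 30 and 31 reads the interval still held a 2-fold difference. Scaling by total counts moved the median log2 ratio of detected genes by -0.20. Over all genes 138 were called higher and 151 lower under TMM, against 98 higher and 203 lower under total counts.

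**Figure D2:**
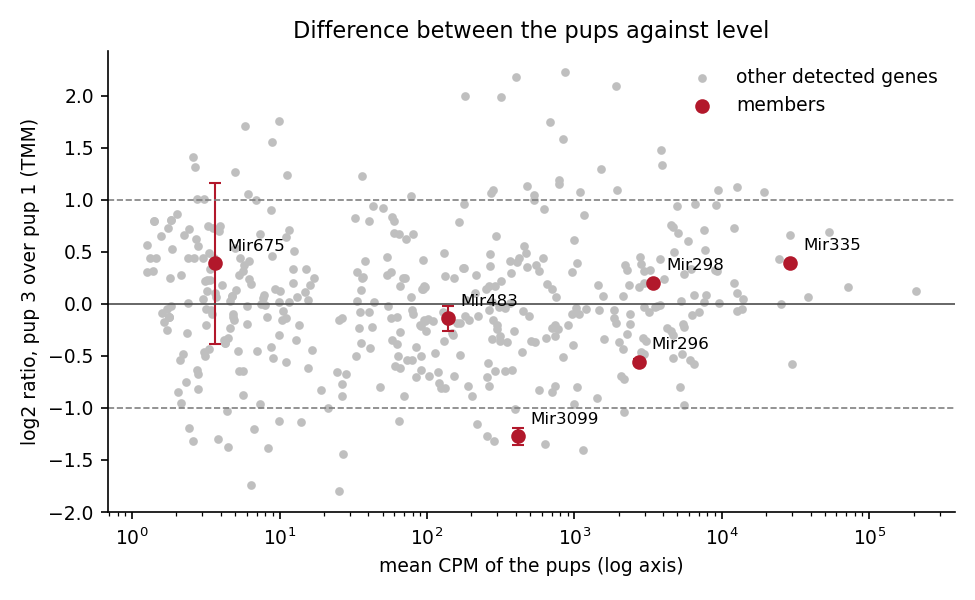
Log2 ratio of pup 3 over pup 1 against mean CPM, for the 6 hairpins in red with 95% exact binomial intervals and for the other detected genes in grey. Dashed lines mark a 2-fold difference. Mir3099 lies below the lower line at -1.27, and the other 5 lie between the lines.

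The hairpins at Gnas were not in the same proportion in both pups, a comparison that needs no scaling between libraries. Mir296 had 0.595 reads for each read of Mir298 in pup 3 and 1.01 in pup 1. As a share of the reads of the pair, Mir296 held 37.3% in pup 3 (95% exact binomial interval 36.9 to 37.8) and 50.2% in pup 1 (49.8 to 50.5). The log2 odds ratio was -0.76 (95% exact conditional interval -0.79 to -0.72), which compares these libraries and not conditions. A similar gap was common among neighbours, in a comparison chosen after the values were seen. Among 68 other pairs of adjacent detected hairpins on 1 strand, less than 1000 bases apart, the log2 ratios differed by a median of 0.50. Of these pairs, 21 (30.9%) lay further apart than Mir296 and Mir298. Among the 24 such pairs with at least 1000 reads per hairpin and pup, 10 did (41.7%). Endothelial Mir126a stood at 36865 CPM in pup 3 and 40491 CPM in pup 1, with a log2 ratio of 0.06, and the part of vessel cells in the level of Mir296 was not tested.

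**Figure D3:**
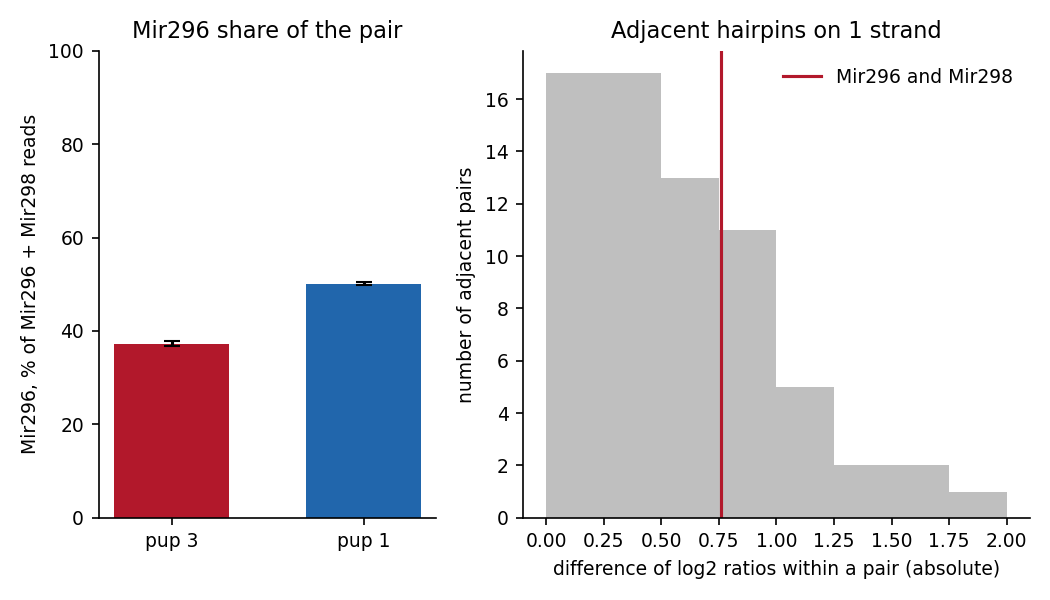
On the left, the share of Mir296 among reads of Mir296 and Mir298, in percent, with 95% exact binomial intervals, is 37.3% in pup 3 and 50.2% in pup 1. On the right, a histogram of the absolute difference of log2 ratios in 68 other adjacent pairs shows the Gnas pair, a red line at 0.76, within their range.

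At distal chromosome 7, Mir483 held 96.9% of the reads of Mir483 and Mir675 in pup 3 (95% exact binomial interval 95.6 to 97.9) and 97.8% in pup 1 (96.9 to 98.5). No difference in this proportion between the pups was detected (log2 odds ratio -0.53, exact conditional interval -1.31 to 0.26, two-sided Fisher's exact p = 0.186). Mir483 exceeded Mir675 by at least 31.3 times in each library, so this order did not rest on 1 pup.

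Set beside microRNAs of other imprinted regions, the 6 hairpins spread from near the top of the order to near the lower end of the detected hairpins. The other regions were listed by position and name, and whether each is imprinted in forebrain was not tested. They held 59 hairpins between Dlk1 and Dio3 on chromosome 12, 107 inside Sfmbt2 on chromosome 2 and 13 of the Mir344 family on chromosome 7. Of these 179 hairpins, 1 had a higher mean than Mir335, namely Mir487b at 22042 CPM in pup 3 and 37790 CPM in pup 1. Mir335 was therefore above Mir487b in pup 3 and below it in pup 1, and no order between them holds over both animals. The numbers above Mir298, Mir296, Mir3099, Mir483 and Mir675 were 8, 10, 28, 42 and 64 of 179, undetected ones included. Detected among the 179 were 51 between Dlk1 and Dio3, 10 inside Sfmbt2 and 4 of the Mir344 family. Most of these detected hairpins thus lay above Mir483, and nearly all of them above Mir675. At 0 in both pups were 6 hairpins between Dlk1 and Dio3, 80 inside Sfmbt2 and 5 of the Mir344 family. Among detected genes of the tables Mir675 was low, with 363 of the 433 above it.

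The median level of the 6 hairpins was 1583 CPM, against 299 CPM for the hairpins between Dlk1 and Dio3, 0 CPM inside Sfmbt2 and 0.286 CPM for the Mir344 family. Over all genes of the tables it was 0 CPM. Over detected hairpins alone, the median was 509 CPM between Dlk1 and Dio3, 114 CPM inside Sfmbt2 and 11.3 CPM for the Mir344 family. Over all detected genes of the tables it was 97.3 CPM. Detected were 6 of 6 hairpins, against 51 of 59 between Dlk1 and Dio3, 10 of 107 inside Sfmbt2 and 4 of 13 of the Mir344 family. Of the Sfmbt2 hairpins 105 share a stretch with another hairpin, as do 12 of the Mir344 family and 5 between Dlk1 and Dio3, so the low counts of the Sfmbt2 and Mir344 hairpins are uncertain. The most abundant were Mir467d inside Sfmbt2 at 867 CPM in pup 3 and 1067 CPM in pup 1, and Mir344f at 13.0 CPM in pup 3 and 20.4 CPM in pup 1.

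Between the pups, the median log2 ratio was 0.03 over the 6 hairpins, against -0.48 over the detected hairpins between Dlk1 and Dio3 and 0.003 over all detected genes. Of the chromosome 12 hairpins 5 were called higher and 39 lower in pup 3 of 51 tested. Mir3099, Mir296 and Mir483 were lower in pup 3 as most of those were, while Mir335, Mir298 and Mir675 were higher under TMM. The call of Mir483 and the direction of Mir298 depended on the processing, and Mir675 was not called. The 6 hairpins, from 4 separate loci, did not share a direction.

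**Figure D4:**
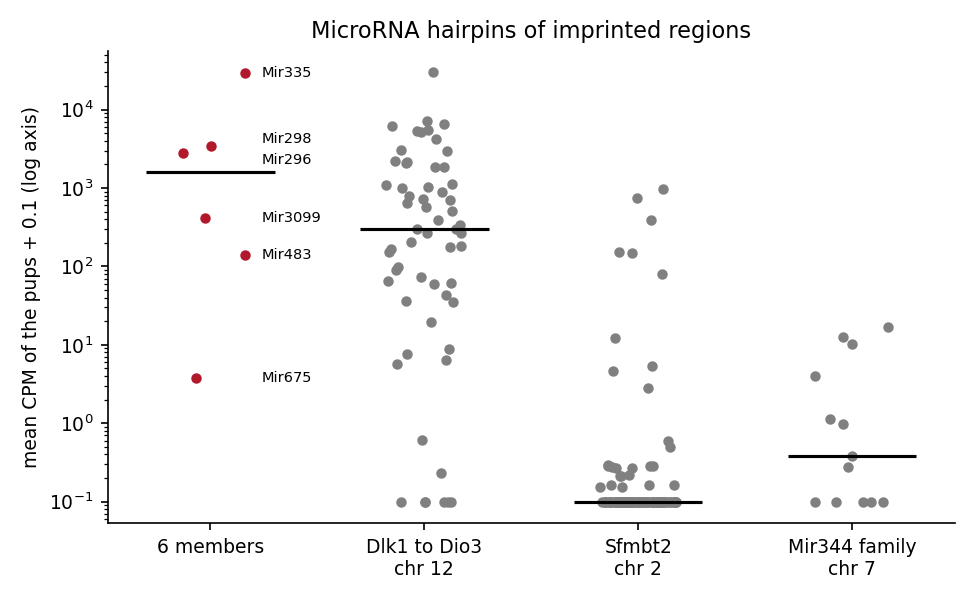
Mean CPM of the pups with 0.1 added, on a log axis, for each hairpin of 4 groups from regions listed as imprinted. Medians are black lines, and imprinting in forebrain was not tested. The 6 hairpins are named and run from Mir335 at 29226 CPM to Mir675 at 3.67 CPM. Their median is 1583 CPM, against 299 CPM between Dlk1 and Dio3, undetected hairpins included, and 509 CPM over the detected ones there.

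A read of a small RNA library covers a whole short molecule, so CPM was not divided by gene length. Divided by the length of the annotated hairpin, 73 to 98 bases, the mean level ran from 298 CPM per base for Mir335 to 0.0437 CPM per base for Mir675, and the order of the 6 hairpins was the same.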

How the data were processed

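Small RNA libraries of 2 forebrains were used, 1 per pup. The authors deposited raw counts of reads per microRNA gene on mm10 with annotation M4, per the notes beside each table. The aligner and counting tool, not given in the sources used here, left 1 table per library. Of 3 count columns without a heading the first was used. It equals the sum of the others in every gene, and these were read from their values as the sense strand and the opposite strand. Tallies that name no gene (unmapped 14.4% of reads in pup 3 and 14.9% in pup 1, in no gene 1.26% and 1.85%, several places as in the report) stayed out of library sizes and tests. GENCODE M21 (GRCm38, the assembly mm10 names) gave names for 1894 of 1973 identifiers.

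TMM factors of edgeR 4.0.16, computed over all genes, were 0.933 for pup 3 and 1.07 for pup 1. With 1 group there is no contrast for an edgeR test. The two-sided exact binomial test took the count of pup 3 given the total of both pups. Alternatives were DESeq2 1.42.0 size factors, total counts, the sense strand, count minimums, 1 added to counts, all reads as denominator, and each pup alone.

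In simulated counts for this comparison, with counting error only and 465 genes tested, the test called 70.0% of 50 genes changed 1.25-fold and 72.0% of 50 changed 1.5-fold. It called 82.0% of 50 genes at 2-fold, 100% of 50 at 4-fold and 1.89% of 265 unchanged genes.

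The 6 hairpins and the gene lists were chosen with earlier results of these data known. Named by rule were the 6 hairpins, the 2 genes at the smallest Euclidean distance from each in log2 CPM, and the most abundant gene of each list. Other marker lists summed, in pup 3 and pup 1, to 49129 and 38331 CPM (neuronal), 370 and 228 CPM (erythroid), 418 and 378 CPM (leukocyte and microglial) and 75.0 and 54.0 CPM (liver, Mir122). Hairpins were folded with RNAfold of ViennaRNA 2.7.2. R 4.3.3 and Python 3.11.15 with scipy 1.17.1 were used.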

Additional observations from a re-analysis of the deposited data

Results flagged for a closer look

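Of the reads counted at Mir335 in pup 1, 11 lay on what was read as the strand opposite to the hairpin, above the floor of 3 counts, in a column that the levels do not use on its own. Pup 3 had 0 such reads, which allows a share of up to 0.00125% of its Mir335 reads. The 11 reads were 0.00447% of the Mir335 reads of pup 1 (95% exact binomial interval 0.00223 to 0.00799), where 2.69% of all assigned reads of that library lay opposite to their gene. The other 5 hairpins had 0 reads on the opposite strand in both pups.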

How the results depend on the processing

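Leaving out pup 1 or pup 3, the share of assigned reads held by the 6 hairpins ran from 3.49% to 3.70%. It was 1.46% of all library reads, a larger denominator by construction. All 6 hairpins stayed detected at minimums of 5 and 20 counts, on the sense strand and in each pup alone. The number of hairpins called between the pups was 5, and 4 under size factors of DESeq2, under total counts and without a count minimum. Over all genes 289 of 460 tested were called. The number was 285 of 460 under size factors of DESeq2, 301 of 460 under total counts and 282 of 775 without a count minimum. Under total counts the log2 ratio of Mir298 was -0.00028 in place of 0.20, a scaling that moves all ratios by -0.20. The log2 ratio of Mir483 was -0.13 under size factors of DESeq2 and no longer past the threshold. Mir3099 was the single hairpin at least 2-fold apart under every scaling tried. Leaving out 1 of 2 pups moves a mean by less than its SD by construction and says nothing of stability. Of the other 42 values under alternatives, 38 kept their direction and their side of the threshold or moved by less than their spread. The level of Mir298 on the sense strand alone, 3520 CPM, moved by more than its spread between the pups, which was 0.475 CPM. No paired analysis was possible because the samples form 1 group. Depth limits Mir675, with 30 and 31 reads.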

Other observations

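The hairpin of Mir675, the least abundant of the 6, had the lowest predicted folding energy per base, at -0.667 kcal/mol per base and -56.0 kcal/mol in all, and 63.1% of its bases were G or C. Of 368 detected hairpins with a RefSeq sequence, 1.36% had a lower energy per base. Mir335, the most abundant, stood at -0.452 kcal/mol per base, near the median of -0.435 over those 368, with 42.9% G or C. The other 4 lay between, from -0.463 for Mir483 to -0.547 for Mir296. These energies are predictions for the annotated hairpin alone, and no relation to level was tested over 6 hairpins.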
